A study of Mus musculus with 30 samples.

Results

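Red pulp macrophages (RPM) of the mouse spleen were compared between TLR7.1 mice, a line that overexpresses Tlr7, and wild-type (WT) B6 mice, across all genes expressed in these cells. The comparison took every RPM library of the series, 6 from TLR7.1 mice and 6 from WT mice, which is 12 of 30 libraries. Each library held RNA of 500 sorted cells from 1 female mouse, and no mouse gave more than 1 RPM library. The TLR7.1 mice were 10 to 15 weeks old and the WT mice 9.4 to 15.7 weeks old. The RPM gate took live CD45.2+ cells that were high for VCAM, positive for F4/80, low for CD31 and negative to intermediate for CD11b, and that lacked Ly6C, Ly6G and SiglecF. Ly6C-high monocytes (Mono) of the same 12 mice, used here only to set a genotype effect beside that in RPM, were sorted as Ly6C+ Ccr2+ CD11b+ cells. The labels do not say which construct or promoter the TLR7.1 line carries, nor in which cells it acts. Because the sorted cells were sequenced in bulk, fewer cells of a type and less RNA per cell cannot be told apart.

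Tlr7 encodes an endosomal receptor for single-stranded RNA, which signals through the adaptor MyD88 to interferon regulatory factors and NF-kB. Red pulp macrophages clear aged red blood cells from the circulation, break down their heme with heme oxygenase and return the iron to plasma through ferroportin. Their identity depends on the transcription factor Spic, and Vcam1 is a surface protein by which they are recognised. In mice the red pulp is also a site where red blood cells are made when demand is high, and splenic macrophages there touch the precursors that surround them.

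Tlr7 stood apart in every library. Its level, in normalised CPM (counts scaled to library size, TMM-corrected), ran from 532 to 1568 CPM in TLR7.1 RPM (median 1026), against 118 to 384 CPM in WT RPM (median 206). All 6 TLR7.1 libraries were above all 6 WT libraries, with a log2 fold change of 2.21 ± 0.28 (SE) and an adjusted p of 0.000312 in edgeR's quasi-likelihood test with Benjamini-Hochberg adjustment over 7945 genes. An exact two-sided permutation test of log2(CPM + 1) over the 12 libraries gave p = 0.00216, the smallest it can give. Within collection dates (13, 21 and 26 December, in this order) the log2 fold change was 2.74, 3.07 and 1.90. The neighbouring genes on the X chromosome that were tested did not pass the test. Tlr8, a related RNA receptor, had a log2 fold change of -0.39 ± 0.37 (adjusted p = 0.73), and Prps2, an enzyme of nucleotide synthesis, one of 0.25 ± 0.40 (adjusted p = 0.861).

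The sorted cells carried the genes of red pulp macrophages in both genotypes. Vcam1 ran from 1275 to 3951 CPM in TLR7.1 RPM (median 2305), against 1917 to 5379 CPM in WT RPM (median 3369), groups that overlapped and did not pass the test (log2 fold change -0.42 ± 0.26, adjusted p = 0.552). Spic ran from 1086 to 1616 CPM in TLR7.1 RPM (median 1176), against 1294 to 1785 CPM in WT RPM (median 1566), also with overlap (log2 fold change -0.31 ± 0.16, adjusted p = 0.431). Slc40a1, which encodes ferroportin, and Hmox1, which encodes heme oxygenase, had log2 fold changes of -0.48 ± 0.19 and 0.0055 ± 0.23 and did not pass the test. Of the genes whose products the gate excluded, Ly6g had no count in any library, Siglecf reached 0 CPM in TLR7.1 RPM and 1.997 in WT RPM, and Ly6c2 reached 62.2 CPM in TLR7.1 RPM and 32.1 in WT RPM. Total counts ran from 268275 to 1257240 in TLR7.1 RPM and from 95002 to 1511480 in WT RPM. The shallowest library, of WT mouse 24323, was also the only WT RPM library collected on 21 December.

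**Figure D1:**
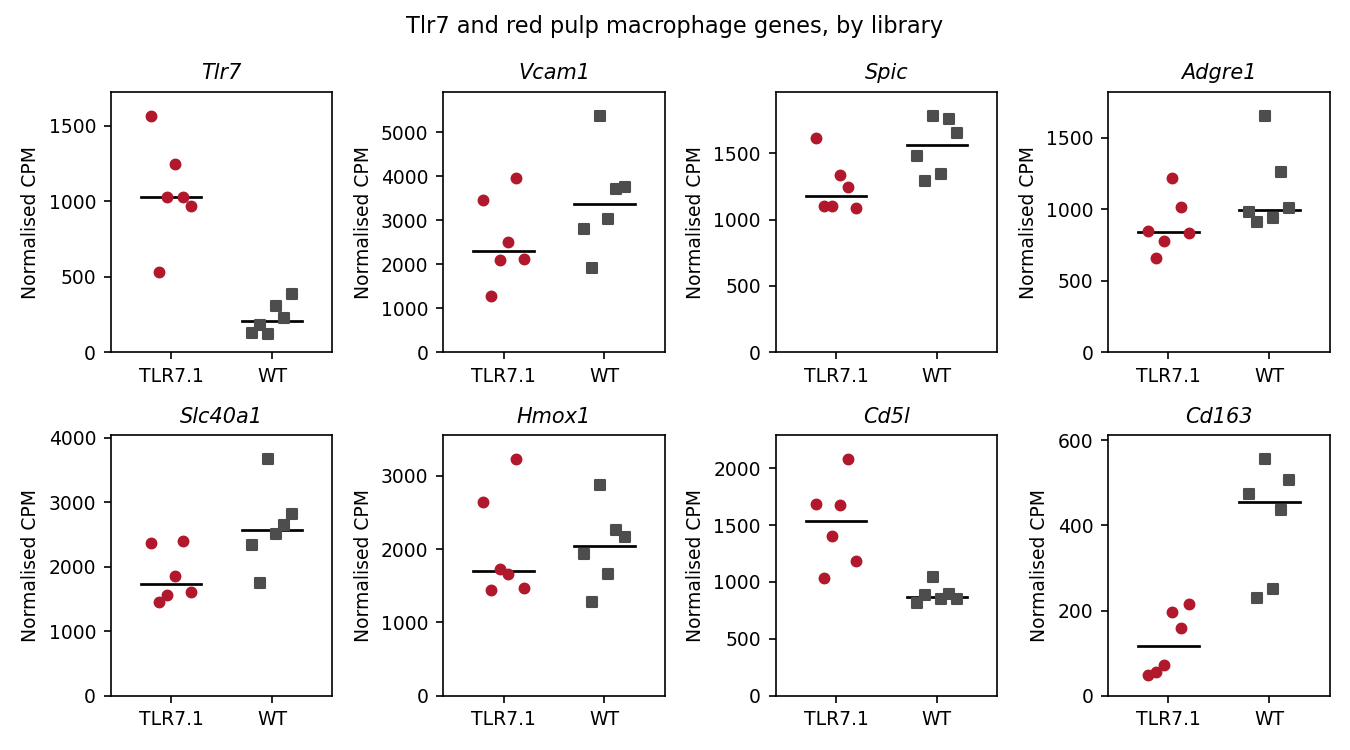
Level of Tlr7, Vcam1 and 6 other red pulp macrophage genes in each library (y axis, normalised CPM), TLR7.1 libraries as circles on the left of each panel and WT libraries as squares on the right, with the median as a line. Tlr7 and Cd163 separate the groups without overlap, in opposite directions, while Vcam1, Spic, Adgre1, Slc40a1, Hmox1 and Cd5l overlap.

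Of 7945 genes tested, 160 (2.01%) passed an adjusted p of 0.05, 109 higher in TLR7.1 RPM (1.37%) and 51 lower (0.642%). At an unadjusted p under 0.05 there were 1038. Among the called genes 94 were at least 2-fold higher and 43 at least 2-fold lower. In 63 of the higher genes and 33 of the lower genes all 6 libraries of one genotype lay beyond all 6 of the other. Of all genes tested 2.15% had such groups, 1.35% with TLR7.1 RPM above and 0.806% with TLR7.1 RPM below. The median log2 fold change over all genes tested was 0.0055. These counts moved with the choice of library and of fit: leaving out 1 library gave 53 to 187 genes higher and 21 to 95 lower. The lowest count of higher genes came without WT mouse 24214, the lowest count of lower genes without WT mouse 24415, and the highest of both without WT mouse 24117.

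**Figure D2:**
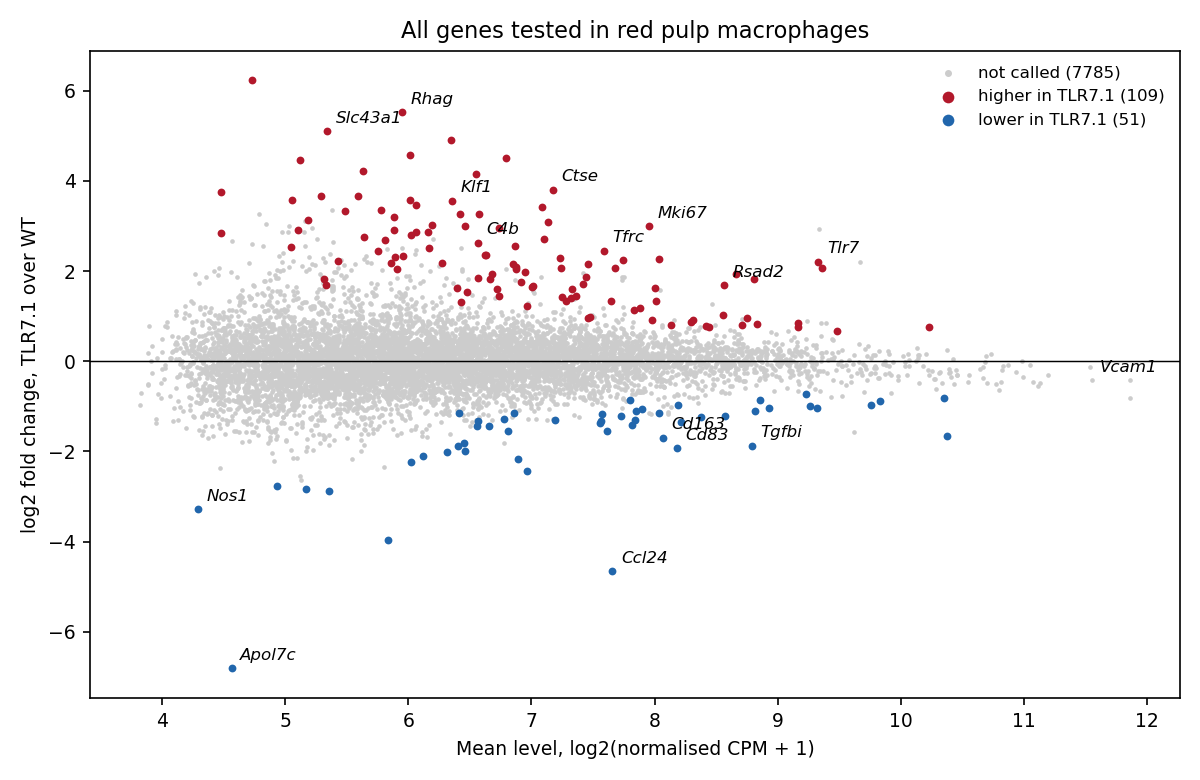
Log2 fold change of TLR7.1 over WT RPM (y axis) against mean level on a log2 scale (x axis) for the 7945 genes tested, with called genes in red (109 higher) and blue (51 lower). The called genes lie at all levels, and the largest changes are among genes of low mean level.

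The largest rises included genes of the red blood cell lineage. Rhag, the Rh-associated glycoprotein of the red cell membrane, ran from 34.7 to 295 CPM in TLR7.1 RPM (median 99.3), against 0 to 5.39 CPM in WT RPM (median 1.34). The groups did not overlap, and 3 of 6 WT libraries had no count (log2 fold change 5.53 ± 0.67, adjusted p = 0.000289). Klf1, a transcription factor that drives red cell maturation, ran from 96.3 to 233 CPM in TLR7.1 RPM (median 148), against 0 to 27.4 CPM in WT RPM (median 9.69), with every TLR7.1 library above every WT library (log2 fold change 3.56 ± 0.52, adjusted p = 0.000883). Smim1, whose human product carries the Vel blood group antigen, ran from 45.6 to 127 CPM in TLR7.1 RPM (median 95.1), against 0 to 23.6 CPM in WT RPM (median 4.003), again without overlap (log2 fold change 4.22 ± 0.67, adjusted p = 0.00177). Slc43a1, a transporter of large neutral amino acids, ran from 34.7 to 96.7 CPM in TLR7.1 RPM (median 85.9), against 0 to 11.8 CPM in WT RPM (median 2.61), and its groups did not overlap either (log2 fold change 5.10 ± 0.72, adjusted p = 0.000614). Ypel4, a member of the Yippee-like family, had 205 counts over the TLR7.1 libraries and 2 over the WT libraries, a ratio of depth-scaled counts of 84.5 (95% counting interval 23.1 to 702). The intervals of such ratios cover counting error only.

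The 10 largest rises were taken among called genes whose genotypes did not overlap, and some genes with overlap rose more. The others of the 10 encode a protease, regulators of the cell cycle, a nucleoside phosphorylase and an apolipoprotein L family member. Whether they rose apart from the red cell genes was not tested. Ctse, which encodes cathepsin E, an aspartic protease of endosomes, ran from 94.0 to 632 CPM in TLR7.1 RPM (median 246), against 0 to 35.5 CPM in WT RPM (median 22.5), without overlap (log2 fold change 3.80 ± 0.57, adjusted p = 0.00104). E2f8, a repressor of the E2F family that acts in the cell cycle, had a log2 fold change of 3.66 ± 0.68 (adjusted p = 0.00689). Rgcc, a regulator of the cell cycle, rose by 3.36 ± 0.65 on the log2 scale (adjusted p = 0.0101). Pnp2, a purine nucleoside phosphorylase, and Apol11b, of the apolipoprotein L family, rose by 3.75 ± 0.80 and 3.42 ± 0.66. Both have close paralogs between which reads could be split, so their values are uncertain.

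**Figure D3:**
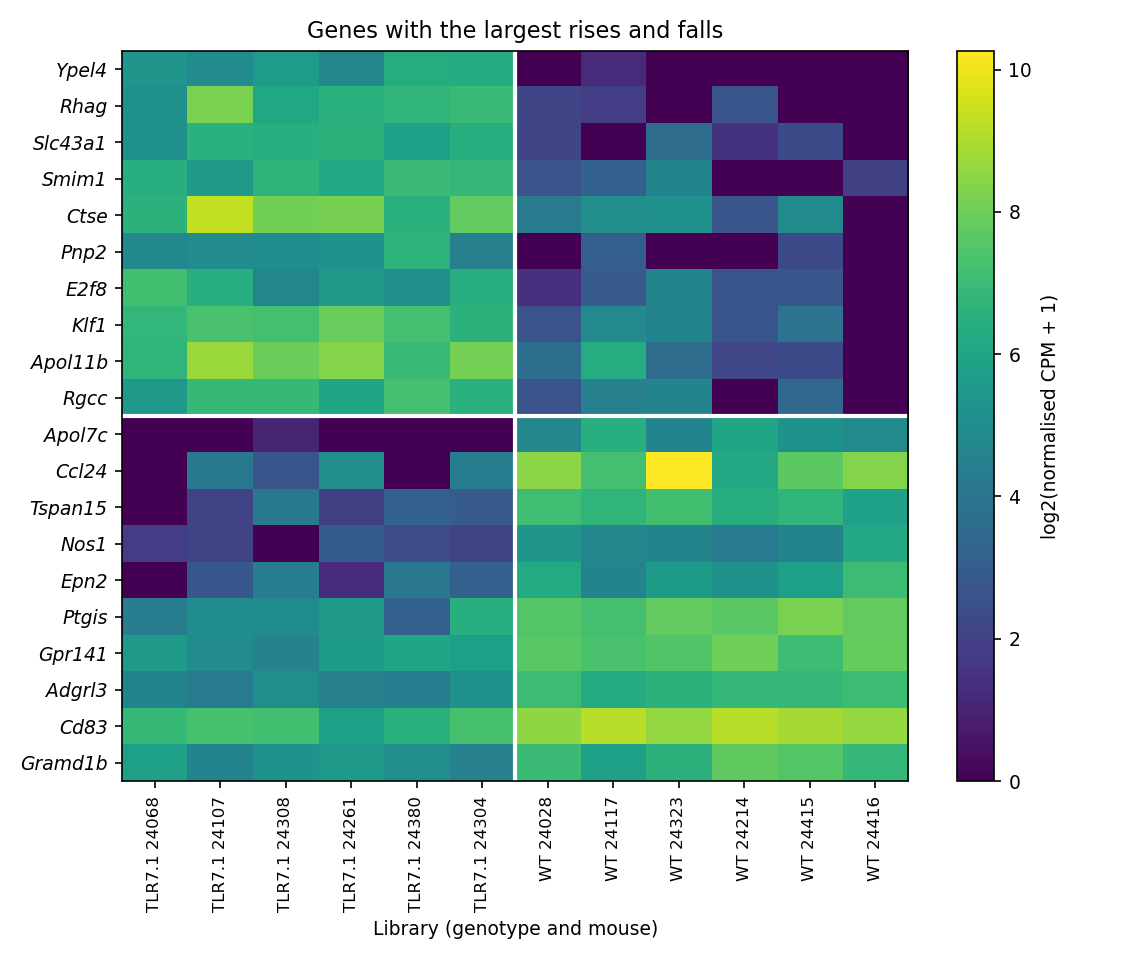
Level of the 10 largest rises (upper rows) and 10 largest falls (lower rows) in each library, as log2(normalised CPM + 1) in colour, TLR7.1 libraries on the left of the white line and WT libraries on the right. The rule that chose these 20 genes asked for genotypes that do not overlap, and Ccl24 has its highest level in WT mouse 24323.

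Genes that fell included a chemokine, enzymes of lipid and nitric oxide signalling and surface receptors. Ccl24, also called eotaxin-2, a chemokine that attracts eosinophils, ran from 0 to 32.7 CPM in TLR7.1 RPM (median 11.1), against 71.9 to 1229 CPM in WT RPM (median 268). Both groups were spread widely but did not overlap (log2 fold change -4.65 ± 0.71, adjusted p = 0.00187). Ptgis, prostacyclin synthase, ran from 8.17 to 85.2 CPM in TLR7.1 RPM (median 30.9), against 148 to 289.5 CPM in WT RPM (median 211), without overlap (log2 fold change -2.44 ± 0.38, adjusted p = 0.00166). Cd83, a surface protein of activated antigen-presenting cells, ran from 58.3 to 156 CPM in TLR7.1 RPM (median 130.3), against 372 to 568 CPM in WT RPM (median 430.3), and its groups were tight and far apart (log2 fold change -1.92 ± 0.23, adjusted p = 0.000289). Tspan15, a tetraspanin that directs the protease ADAM10, ran from 0 to 16.6 CPM in TLR7.1 RPM (median 4.98), against 57.3 to 142 CPM in WT RPM (median 106), without overlap (log2 fold change -3.97 ± 0.56, adjusted p = 0.000614). Gpr141, an orphan receptor coupled to G proteins, fell by 2.16 on the log2 scale (adjusted p = 0.000625). Nos1, the neuronal nitric oxide synthase, reached 7.11 CPM at most in TLR7.1 RPM, against a lowest level of 18.0 CPM in WT RPM (log2 fold change -3.28 ± 0.69, adjusted p = 0.0177).

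Apol7c, of the apolipoprotein L family, had 1 count over the TLR7.1 libraries and 216 over the WT libraries. Its depth-scaled level was 262-fold higher in WT RPM (95% counting interval 46.5 to 10398). The gene has close paralogs, so this value is uncertain in the way given for Apol11b. The other genes among the 10 largest falls without overlap of the genotypes were Epn2, Adgrl3 and Gramd1b. They encode an endocytic adaptor, an adhesion receptor of the latrophilin family and a protein that moves cholesterol at the endoplasmic reticulum. Their log2 fold changes were -2.83 ± 0.68, -2.10 ± 0.34 and -1.89 ± 0.38 (adjusted p = 0.0332, 0.0022 and 0.0125). The call of Epn2 was lost in 8 of 12 fits without 1 library. The call of Gramd1b was lost without WT mouse 24214, that of Nos1 without WT mouse 24416, and that of Pnp2 without WT mouse 24214 (adjusted p = 0.0509, 0.0591 and 0.0511).

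Markers of erythroid cells were among the genes that rose in TLR7.1 RPM, and the alpha and beta globins described below were not. Of the 22 on the list, 20 passed the filter on low counts, 9 rose and 0 fell, where 1.37% of all genes tested rose. The median log2 fold change was 2.41 against 0.0055 over all genes tested. The filter asks for expression in as many libraries as 1 genotype has, so a gene high in TLR7.1 RPM alone could pass it. Summed over the markers other than globins, the level ran from 3098 to 5005 CPM in TLR7.1 RPM (median 4066), against 172 to 1705 CPM in WT RPM (median 919). The lowest TLR7.1 library was above the highest WT library.

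Membrane proteins of red cells made up much of the list. Slc4a1, the anion exchanger band 3, ran from 141 to 392 CPM in TLR7.1 RPM (median 235), against 0 to 82.7 CPM in WT RPM (median 20.5), without overlap (log2 fold change 3.09 ± 0.59, adjusted p = 0.00935). Rhd, which carries the Rh antigen, rose by 4.91 ± 0.83 (adjusted p = 0.00303), although its highest WT library, at 59.1 CPM, was above its lowest TLR7.1 library, at 28.6 CPM. Sptb, the beta chain of red cell spectrin, rose by 3.57 ± 0.90 (adjusted p = 0.042). Its call was lost in 9 of 12 fits without 1 library.

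The remaining called markers were a carbonic anhydrase, a nuclear protein and a tetraspanin. Car2, the carbonic anhydrase, ran from 919.6 to 1316 CPM in TLR7.1 RPM (median 995), against 37.2 to 520.1 CPM in WT RPM (median 262), without overlap (log2 fold change 2.06 ± 0.37, adjusted p = 0.00462). Hemgn, a nuclear protein of blood precursors, rose by 2.56 ± 0.50 and Tspan33, the tetraspanin, by 2.34 ± 0.56 (adjusted p = 0.00994 and 0.0327), the call of Tspan33 being lost in 7 of 12 fits without 1 library. Gata1, the master regulator of erythroid genes, did not pass the test (log2 fold change 2.99 ± 0.97, adjusted p = 0.139). Other genes of the lineage were picked out after their values were seen: Tal1, a transcription factor that works with Gata1, rose by 3.45 ± 0.75, Nfe2, a transcription factor that acts on globin genes, by 2.87 ± 0.63, Ermap, an erythroid membrane protein, by 4.57 ± 0.79, and Aqp1, the water channel of red cells, by 3.67 ± 0.80. Tal1 and Aqp1 each lost their call in 2 of 12 fits without 1 library, and Nfe2 in 1, without TLR7.1 mouse 24380.

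The globins did not pass the test. Summed over 4 alpha and beta globin genes, the level ran from 813 to 3240 CPM in TLR7.1 RPM (median 1244), against 341 to 5698 CPM in WT RPM (median 1138). The highest of all 12 libraries was that of WT mouse 24323. Hbb-bs, a beta globin, had a log2 fold change of -0.053 ± 0.56 (adjusted p = 0.978), and Hba-a1, an alpha globin, one of -0.09 ± 0.53 (adjusted p = 0.961). Without WT mouse 24323 these were 0.79 and 0.61 (adjusted p = 0.412 and 0.605). The globin genes are near-identical pairs between which reads could be split.

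Heme synthesis was followed over 8 enzymes, a list added after values were seen. All 8 were tested, 4 rose and 0 fell, where 1.37% of all genes tested rose. There were 8 positive log2 fold changes, with a median of 1.53. Alad, the enzyme of the second step, ran from 109 to 264 CPM in TLR7.1 RPM (median 171), against 1.798 to 70.9 CPM in WT RPM (median 22.3), without overlap (log2 fold change 2.95 ± 0.53, adjusted p = 0.00501). Cpox, Urod and Fech, which act later, rose by 1.98 ± 0.38, 1.71 ± 0.41 and 1.34 ± 0.30 (adjusted p = 0.00978, 0.0313 and 0.0237). Urod lost its call in 6 and Fech in 5 of 12 fits without 1 library. Alas2, the erythroid enzyme of the first step, ran from 229 to 467 CPM in TLR7.1 RPM (median 304), against 0 to 209 CPM in WT RPM (median 71.0). Its groups did not overlap, yet it missed the threshold (log2 fold change 1.805 ± 0.55, adjusted p = 0.111), and Alas1, the enzyme of that step in other tissues, had a log2 fold change of 0.059 ± 0.69.

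Among the iron genes, the 2 that rose act in iron uptake and in its transfer to mitochondria. Of 33 genes of heme uptake, heme breakdown and iron handling, 27 were tested, 2 rose and 1 fell, with a median log2 fold change of -0.0056. Among all genes tested 1.37% rose and 0.642% fell. Tfrc, the transferrin receptor, ran from 238 to 439 CPM in TLR7.1 RPM (median 309), against 18.0 to 154 CPM in WT RPM (median 51.5), without overlap (log2 fold change 2.45 ± 0.38, adjusted p = 0.00161). Slc25a37, or mitoferrin, which carries iron into mitochondria, ran from 351 to 445 CPM in TLR7.1 RPM (median 375), against 52.8 to 201 CPM in WT RPM (median 129), likewise without overlap (log2 fold change 1.62 ± 0.27, adjusted p = 0.00285). Cd163, the receptor that takes up haemoglobin bound to haptoglobin, fell, and ran from 48.0 to 216 CPM in TLR7.1 RPM (median 116), against 229 to 556 CPM in WT RPM (median 456) (log2 fold change -1.69 ± 0.36, adjusted p = 0.0186). Its groups did not overlap, but 2 WT libraries were close to the highest TLR7.1 library. Without the 2 libraries under 300000 counts, of WT mouse 24323 and TLR7.1 mouse 24380, Cd163 no longer passed (log2 fold change -1.66, adjusted p = 0.0601), an alternative chosen after seeing the data.

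The promoters of Klf1 and Rhag are shown because both genes were among the largest rises. Their sequences, from 250 bases before to 50 after the start in RefSeq on GRCm38.p6, stand at chr8:84901732-84902031 on the plus strand and chr17:40810899-40811198 on the plus strand. Capitals mark matches on either strand to 4 forms of the GATA motif, of which one is AGATAA, another is AGATAG, a further one is TGATAA and the last is TGATAG. They also mark CCACCC, the letters that KLF family factors bind.
Klf1: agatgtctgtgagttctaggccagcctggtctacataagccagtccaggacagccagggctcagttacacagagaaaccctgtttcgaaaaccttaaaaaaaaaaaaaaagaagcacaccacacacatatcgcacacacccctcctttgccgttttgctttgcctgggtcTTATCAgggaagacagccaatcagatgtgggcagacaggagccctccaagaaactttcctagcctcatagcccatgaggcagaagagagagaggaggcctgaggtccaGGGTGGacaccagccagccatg
Rhag: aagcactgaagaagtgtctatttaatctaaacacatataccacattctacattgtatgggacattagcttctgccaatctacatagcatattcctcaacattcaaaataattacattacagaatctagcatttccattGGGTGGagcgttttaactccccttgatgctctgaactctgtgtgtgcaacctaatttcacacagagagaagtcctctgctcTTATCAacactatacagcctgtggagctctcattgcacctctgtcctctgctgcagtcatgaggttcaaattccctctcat
Each of the 2 held 1 GATA form and 1 CCACCC. Of the 9 erythroid markers that rose, 6 had a promoter in the table, and 5 of these held a GATA form, which 30.2% of 27025 promoters and 17.9% of the promoters of genes tested did. The search was first made for AGATAA alone, which 2 of the 6 held against 11.4% of all promoters, and the other forms were added after that result and the promoters had been seen. CCACCC stood in 3 of the 6, against 30.9% of all promoters. A match is a description of letters and not a site of binding.

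**Figure D4:**
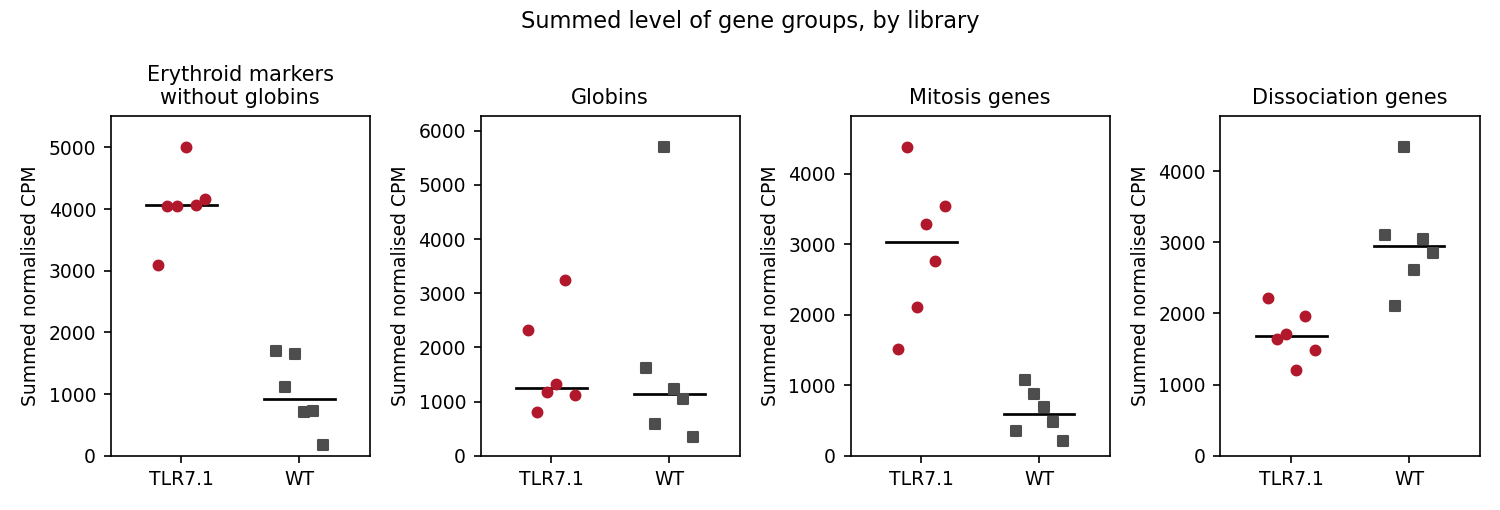
Level summed over genes of a list in each library (y axis, normalised CPM), TLR7.1 libraries as circles on the left and WT libraries as squares on the right of each panel, with the median as a line. The erythroid markers without globins and the mitosis genes separate the genotypes, and the alpha and beta globins do not.

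Genes of cell division were higher in TLR7.1 RPM. Of 25 mitosis genes, 19 were tested, 9 rose and 0 fell, and all 19 had positive log2 fold changes, with a median of 2.24. Among all genes tested 1.37% rose. A gene high in TLR7.1 RPM alone could pass the filter, so the signs and median cover a selected part of the list. Summed over the list, the level ran from 1514 to 4378 CPM in TLR7.1 RPM (median 3026), against 215 to 1069.7 CPM in WT RPM (median 586), without overlap. Mki67, the marker of cycling cells, ran from 216 to 634 CPM in TLR7.1 RPM (median 441), against 8.59 to 97.6 CPM in WT RPM (median 63.7), with every TLR7.1 library above every WT library (log2 fold change 2.99 ± 0.41, adjusted p = 0.000521). Top2a, the topoisomerase that untangles chromosomes, ran from 138 to 404 CPM in TLR7.1 RPM (median 316), against 42.8 to 103 CPM in WT RPM (median 50.9), without overlap (log2 fold change 2.16 ± 0.30, adjusted p = 0.000614). Ccnb2, a cyclin of mitotic entry, ran from 65.4 to 353 CPM in TLR7.1 RPM (median 127), against 0 to 38.8 CPM in WT RPM (median 17.0), without overlap (log2 fold change 2.99 ± 0.59, adjusted p = 0.0111). Nusap1, which binds spindle microtubules, Birc5, or survivin, of the chromosomal passenger complex, and Ube2c, which helps to degrade cyclins, rose by 2.36 ± 0.37, 2.07 ± 0.46 and 1.87 ± 0.32 on the log2 scale. The kinetochore genes Cenpe and Cenpf rose by 2.88 ± 0.68 and 3.19 ± 0.62, and Prc1, of the spindle midzone, by 2.18 ± 0.53. Of the 9, Birc5, Cenpe and Prc1 lost their call in 5, 6 and 7 of 12 fits without 1 library.

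DNA replication genes leaned the same way, with few that passed the test. Of 25, 24 were tested, 2 rose and 0 fell, and all 24 had positive log2 fold changes, with a median of 1.53. The share of all genes tested that rose was 1.37%, and the limit of the filter given for mitosis holds here too. Rrm1, a subunit of ribonucleotide reductase, rose by 1.68 ± 0.35 (adjusted p = 0.0164), its groups overlapping. Dut, which keeps uracil out of DNA, ran from 85.3 to 297 CPM in TLR7.1 RPM (median 213), against 32.4 to 84.9 CPM in WT RPM (median 62.4), groups that met but did not overlap (log2 fold change 1.65 ± 0.34, adjusted p = 0.0153). E2f2, an activator of cell cycle genes, and Ezh2, a histone methyltransferase of dividing cells, were named after their values were seen and rose by 2.81 ± 0.61 and 1.63 ± 0.35, calls that were each lost in 3 of 12 fits without 1 library.

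The promoters of Top2a, Ccnb2 and Mki67 are shown because these genes of 1 process rose together. They stand at chr11:99024140-99024439 on the minus strand, chr9:70421505-70421804 on the minus strand and chr7:135716330-135716629 on the minus strand in RefSeq on GRCm38.p6. Capitals mark matches on either strand to CCAAT, the box bound by NF-Y, and to TTTGAA, the cell cycle homology region (CHR).
Top2a: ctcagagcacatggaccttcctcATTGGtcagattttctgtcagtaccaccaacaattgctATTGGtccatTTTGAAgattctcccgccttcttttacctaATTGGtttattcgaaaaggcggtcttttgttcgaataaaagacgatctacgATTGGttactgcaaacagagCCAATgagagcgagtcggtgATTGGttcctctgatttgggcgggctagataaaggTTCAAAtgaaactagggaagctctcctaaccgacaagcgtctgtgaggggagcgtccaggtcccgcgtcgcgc
Ccnb2: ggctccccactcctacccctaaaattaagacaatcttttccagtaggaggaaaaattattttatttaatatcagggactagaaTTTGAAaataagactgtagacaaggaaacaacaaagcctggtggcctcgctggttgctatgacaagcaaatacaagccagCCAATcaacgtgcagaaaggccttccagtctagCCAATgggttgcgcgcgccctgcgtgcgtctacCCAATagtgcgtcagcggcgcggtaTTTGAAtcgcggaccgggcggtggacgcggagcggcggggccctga
Mki67: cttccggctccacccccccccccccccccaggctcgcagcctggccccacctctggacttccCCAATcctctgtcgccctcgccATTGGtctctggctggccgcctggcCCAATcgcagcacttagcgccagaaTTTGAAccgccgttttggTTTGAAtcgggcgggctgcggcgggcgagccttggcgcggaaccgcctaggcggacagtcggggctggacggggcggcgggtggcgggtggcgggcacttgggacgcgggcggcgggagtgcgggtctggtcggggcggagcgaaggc
The promoter of Top2a held 6 CCAAT boxes and 2 TTTGAA matches, and those of Ccnb2 and Mki67 each held 3 and 2. All 11 mitosis and replication genes that rose had a promoter in the table, of which 8 (72.7%) held CCAAT and 6 (54.5%) held TTTGAA. Among the promoters of genes tested, 38.8% held CCAAT and 11.3% held TTTGAA.

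In monocytes of the same mice the division genes also rose, and most erythroid and heme genes did not pass the test. All 9 mitosis genes that rose in RPM rose in Mono, in a fit of 24 libraries and 10748 genes where 1.94% of genes passed in Mono. Their summed level, over the whole list, ran from 2954 to 5260 CPM in TLR7.1 Mono (median 4439), against 203 to 919 CPM in WT Mono (median 591). Mki67 averaged 308 ± 80.8 CPM in TLR7.1 Mono and 49.0 ± 19.2 CPM in WT Mono (SD, n = 6 each). None of the 9 passed edgeR's test of a difference in genotype effect between the populations.

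Of the 9 erythroid markers that rose in RPM, 1 rose in Mono. That gene was Car2, with log2 fold changes of 2.09 in RPM and 4.16 in Mono. The erythroid markers without globins summed to 334 to 416 CPM in TLR7.1 Mono (median 401), against 293 to 374 CPM in WT Mono (median 350.3). Their counts in Mono were low, Rhag having 10 over the TLR7.1 Mono libraries and 0 over the WT Mono libraries, and none of the 9 passed the interaction test. Of the 4 heme synthesis genes that rose in RPM, 0 rose in Mono, with log2 fold changes there of -0.43 to 0.55. Cpox passed the interaction test (difference 2.43 ± 0.46, adjusted p = 0.0102).

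**Figure D5:**
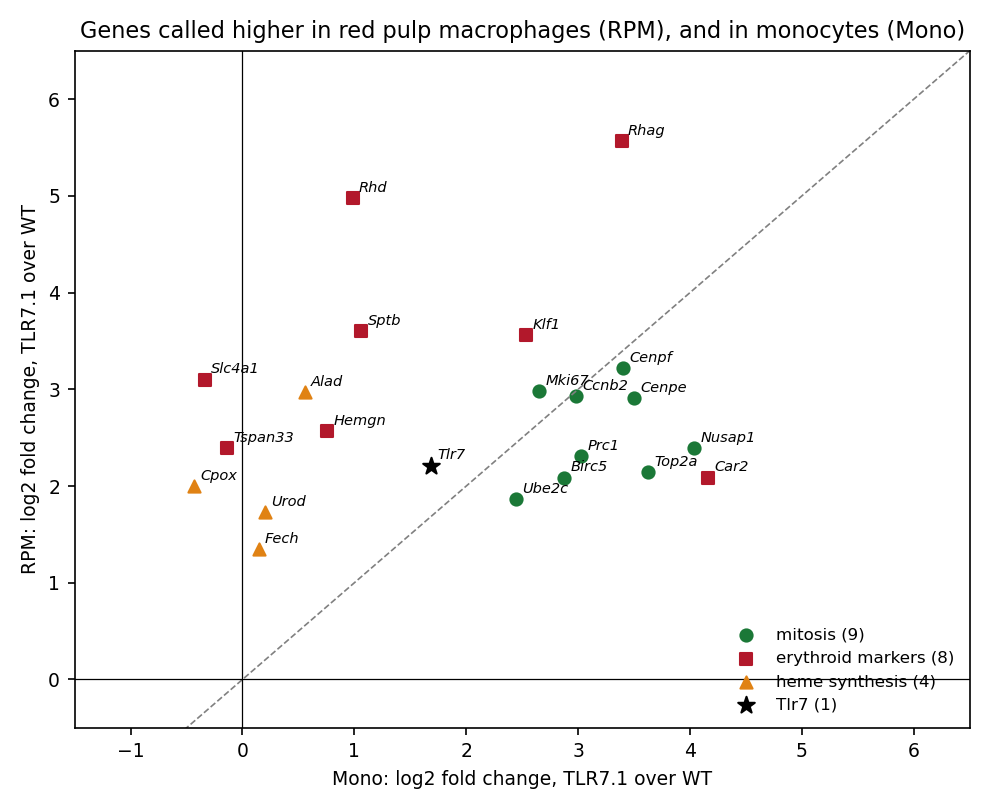
Log2 fold change of TLR7.1 over WT in RPM (y axis) and in Mono (x axis) for described genes of 3 lists that rose in RPM, and for Tlr7, with the dashed line where both are equal. Of the mitosis genes (green circles) Mki67 lies above the line and the others lie below it. Heme synthesis genes (orange triangles) lie near 0 in Mono. Erythroid markers (red squares) spread from -0.34 to 4.16 in Mono, most of them on low counts there.

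The difference between the genotype effects in RPM and Mono was tested for all genes. The effect in RPM minus that in Mono passed for 58 of 10748 genes (0.54%), 36 with a higher and 22 with a lower value in RPM. Of the 160 genes called in RPM, 29 were among them and 25 were called in Mono in the same direction as in RPM, with 0 in the opposite direction. Ctse had the largest positive difference by the naming rule, with log2 fold changes of 3.80 in RPM and -0.43 in Mono (difference 4.23 ± 0.66, adjusted p = 0.000967). Rgcc and Ccdc88c, a regulator of Wnt signalling, followed, with log2 fold changes of 3.34 in RPM and 0.024 in Mono for Rgcc and of 2.72 in RPM and -0.42 in Mono for Ccdc88c. Nfe2 was highly expressed in Mono of both genotypes, at 389.9 ± 24.3 CPM in TLR7.1 Mono and 379.8 ± 29.0 CPM in WT Mono (SD, n = 6 each), and its effects differed (difference 2.71 ± 0.54, adjusted p = 0.0129). Ranbp10, a Ran-binding protein, was higher in RPM by a difference of 2.72 ± 0.54. The calls in RPM were lost in 6 of 12 fits without 1 library for Ccdc88c and in 3 for Ranbp10.

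Falls that were larger in RPM than in Mono included Apol7c, Mctp1, Gpr141, Galnt6 and Tgfbi. Tgfbi, a matrix protein induced by TGF-beta, ran from 141 to 232 CPM in TLR7.1 RPM (median 191), against 409 to 1277 CPM in WT RPM (median 539.8), without overlap (log2 fold change -1.87 ± 0.25, adjusted p = 0.000494). In Mono it averaged 685 ± 50.2 CPM in TLR7.1 Mono and 733 ± 47.5 CPM in WT Mono (SD, n = 6 each), and the effects differed (difference -1.75 ± 0.26, adjusted p = 0.000421). Gpr141 averaged 636 ± 57.5 CPM in TLR7.1 Mono and 717 ± 151 CPM in WT Mono, and its effects differed as well (difference -2.01 ± 0.27, adjusted p = 0.000421). Mctp1, a calcium-binding membrane protein, and Galnt6, which starts O-linked glycans, differed by -2.45 and -1.96 (adjusted p = 0.0412 and 0.0412). The call of Mctp1 in RPM was lost in 10 of 12 fits without 1 library. Apol7c had 55 counts over the TLR7.1 Mono libraries and 7 over the WT Mono libraries, so its effect ran the other way there without passing the test (adjusted p = 0.202).

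Few genes of the interferon response, a main output of Tlr7, passed the test in TLR7.1 RPM. Of 51 genes of the type I interferon response, 45 were tested, 2 rose and 0 fell, with a median log2 fold change of 0.12. Over all genes 1.37% were called higher. At an unadjusted p under 0.05 there were 6 members, against 1038 of all 7945 genes tested, and DESeq2's test called 3 higher. Rsad2, or viperin, an antiviral enzyme, ran from 404 to 776 CPM in TLR7.1 RPM (median 549), against 108 to 331 CPM in WT RPM (median 162), without overlap (log2 fold change 1.69 ± 0.24, adjusted p = 0.000614). In Mono it averaged 119 ± 32.0 CPM in TLR7.1 Mono and 172 ± 53.2 CPM in WT Mono (SD, n = 6 each), and the genotype effects differed between the populations (difference 2.25 ± 0.33, adjusted p = 0.000421). Isg20, an antiviral exonuclease, was spread from 98.7 to 445 CPM in TLR7.1 RPM (median 253), against 0 to 113 CPM in WT RPM (median 26.6). Its groups overlapped, its call (log2 fold change 2.29 ± 0.56, adjusted p = 0.0377) was lost in 7 of 12 fits without 1 library, and its effect also differed from that in Mono (difference 2.58 ± 0.59, adjusted p = 0.0412). Isg15, a ubiquitin-like modifier, had higher levels in all 6 TLR7.1 libraries than in any WT library but missed the threshold (log2 fold change 1.49 ± 0.46, adjusted p = 0.118). Mx1, a GTPase with antiviral action, and Cxcl10, an interferon-induced chemokine, had log2 fold changes of 0.032 ± 0.77 and -1.30 ± 0.73. Of 12 interferon-inducible GTPases tested, 0 passed, also at an unadjusted p under 0.05 or by DESeq2's test, and their median log2 fold change was 0.44.

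The promoter of Rsad2 is shown because it was the interferon gene with the clearest separation. It stands at chr12:26456403-26456702 on the minus strand in RefSeq on GRCm38.p6, with capitals for its match, on either strand, to the interferon-stimulated response element, searched as GAAA, any 2 bases and GAAA again.
Rsad2: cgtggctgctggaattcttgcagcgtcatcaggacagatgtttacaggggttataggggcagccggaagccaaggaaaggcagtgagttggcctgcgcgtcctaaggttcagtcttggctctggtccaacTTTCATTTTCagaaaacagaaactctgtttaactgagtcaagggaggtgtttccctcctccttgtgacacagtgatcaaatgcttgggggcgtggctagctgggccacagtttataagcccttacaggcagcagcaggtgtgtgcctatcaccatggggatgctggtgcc
It held 1 match, as did 3.49% of all promoters, and the promoter of Isg20 held 0.

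Upstream of interferon, the tested genes of the Tlr7 pathway did not pass the test apart from Tlr7 itself. Of 23 endosomal TLRs and their chaperones and proteases, 18 were tested and Tlr7 alone rose, the median log2 fold change being -0.078. Of 21 MyD88 pathway genes, 17 were tested and 0 passed, with 4 at an unadjusted p under 0.05 and 0 by DESeq2's test. Among all genes tested only 2.01% passed, and 1038 of 7945 had an unadjusted p under 0.05, so 0 in lists of this size is near that share. Among 22 interferon regulatory factors, STATs and receptors, 21 were tested and 1 fell, where 0.642% of all genes tested fell. That gene was Ifngr1, a chain of the interferon gamma receptor, which ran from 273 to 376 CPM in TLR7.1 RPM (median 328), against 461 to 757 CPM in WT RPM (median 571), without overlap (log2 fold change -0.86 ± 0.17, adjusted p = 0.0111). Irf7, a factor that drives interferon genes, had a log2 fold change of 0.33 ± 0.32 (adjusted p = 0.742). Among cytokine genes and NF-kB targets, 0 of 21 tested passed, with 4 at an unadjusted p under 0.05 and 1, higher, by DESeq2's test.

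Genes of red pulp macrophage identity mostly had lower levels in TLR7.1 RPM, without passing the test. Of 35 identity genes all were tested, 1 rose and 1 fell, where 2.01% of all genes were called, and 12 had an unadjusted p under 0.05. Of the 35, 27 had negative log2 fold changes, with a median of -0.31. The gene that fell was Cd163. The gene that rose was Cd5l, a secreted scavenger protein of tissue macrophages, which ran from 1032 to 2079.7 CPM in TLR7.1 RPM (median 1538), against 819 to 1040.3 CPM in WT RPM (median 867). Its groups overlapped by 1 library on either side (log2 fold change 0.77 ± 0.18, adjusted p = 0.0282), and its call was lost in 6 of 12 fits without 1 library. Itgad and Mrc1, surface proteins of red pulp macrophages, had log2 fold changes of -0.71 ± 0.22 and -0.49 ± 0.21 without passing. All 12 tested receptors and bridging molecules for phosphatidylserine, the signal by which dying cells are eaten, had negative log2 fold changes, with a median of -0.37, and 0 passed. At an unadjusted p under 0.05 there were 4, and DESeq2's test called 3, all lower.

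Single genes of other macrophage functions passed the test. C4b, the complement component C4, which has a near-identical paralog, ran from 68.1 to 290.1 CPM in TLR7.1 RPM (median 143), against 5.73 to 44.9 CPM in WT RPM (median 21.2), without overlap (log2 fold change 2.63 ± 0.45, adjusted p = 0.00364). It was the 1 called gene of 13 complement genes tested, where 2.01% of all genes tested were called. Pycard, the inflammasome adaptor ASC, rose by 0.83 ± 0.20 and Fcgr4, an activating Fc receptor, by 0.67 ± 0.17, calls that were lost in 8 and 10 of 12 fits without 1 library. Lpl, lipoprotein lipase, ran from 129 to 266 CPM in TLR7.1 RPM (median 257), against 341 to 697 CPM in WT RPM (median 546), without overlap (log2 fold change -1.22 ± 0.22, adjusted p = 0.00613). Ccr3, the receptor for Ccl24, fell by 0.819 on the log2 scale (adjusted p = 0.0327), and this call was lost in 8 of 12 fits. Of 14 genes of MHC class II presentation and co-stimulation tested, 0 passed, with a median log2 fold change of -0.47, against 4 at an unadjusted p under 0.05 and 1, lower, by DESeq2's test. No gene passed among those tested for glycolysis (15), oxidative phosphorylation (31), cholesterol synthesis (11), antioxidant defence (23) or the unfolded protein response (19). Lists of this size would hold few called genes at the share of 2.01%, and 1038 of all 7945 genes had an unadjusted p under 0.05. At that unadjusted p the 5 lists, from glycolysis to the unfolded protein response, had 4, 5, 0, 3 and 2 genes, in that order. DESeq2's test called 1 for antioxidant defence and 1 for the unfolded protein response, both higher.

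Further genes that fell were named after their values were seen. Lpcat2, which makes platelet-activating factor, ran from 102 to 269 CPM in TLR7.1 RPM (median 152), against 335 to 503 CPM in WT RPM (median 433), without overlap (log2 fold change -1.35 ± 0.22, adjusted p = 0.00187). Dnase1l3, a secreted nuclease that digests DNA of dead cells, ran from 74.7 to 203 CPM in TLR7.1 RPM (median 152), against 246 to 496 CPM in WT RPM (median 306), without overlap (log2 fold change -1.07 ± 0.24, adjusted p = 0.0258). Its call was lost in 4 of 12 fits without 1 library. Cd1d1, which presents lipids to NKT cells, fell by 1.33 on the log2 scale, Slpi, a protease inhibitor, by 1.65, and Gpr65, a proton-sensing receptor, by 0.98 (adjusted p = 0.0305, 0.0229 and 0.0196). Their calls were lost in 7 of 12 fits for Cd1d1, in 3 for Slpi and in 1, without WT mouse 24415, for Gpr65.

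Genes that respond to tissue dissociation leaned lower in TLR7.1 RPM. Their sum ran from 1209.8 to 2224 CPM in TLR7.1 RPM (median 1680.3), against 2111 to 4338 CPM in WT RPM (median 2952), and 16 of 17 tested members had negative log2 fold changes, with a median of -0.87. The 1 called gene was Zfp36, which destabilises cytokine mRNAs (log2 fold change -1.14 ± 0.30, adjusted p = 0.0495), and its call was lost in 10 of 12 fits without 1 library. Among all genes tested 0.642% fell. Mitochondrial transcripts summed to 4723 to 11191 CPM in TLR7.1 RPM (median 6884), against 4456 to 14623 CPM in WT RPM (median 8394), with overlap. The part of these differences in the other results was not tested.

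Markers of other cells were also measured. Summed over a list, those of B cells and of plasma cells each had a median in TLR7.1 RPM above that of the single gene Tlr7. Of 14 tested B cell genes 0 passed, and the summed level ran from 899 to 2646 CPM in TLR7.1 RPM (median 1671), against 603 to 1932 CPM in WT RPM (median 1179.7). For 5 tested T and NK cell genes, also with 0 passing, it ran from 76.8 to 2616 CPM in TLR7.1 RPM (median 439), against 85.9 to 499 CPM in WT RPM (median 189.8). Plasma cell genes summed to 752 to 3346 CPM in TLR7.1 RPM (median 2644), against 437 to 2018 CPM in WT RPM (median 710.3), and 0 of 5 tested passed, while Igkc, the immunoglobulin kappa constant region, rose by 1.82 ± 0.44 (adjusted p = 0.0379, chosen after its values were seen), a call lost in 9 of 12 fits without 1 library. Jchain, which joins secreted immunoglobulins, ran from 40.9 to 1699 CPM in TLR7.1 RPM (median 1337), against 0 to 774 CPM in WT RPM (median 4.79), with overlap and without passing (log2 fold change 2.93 ± 1.35, adjusted p = 0.395). Ly6C-high monocyte genes summed to 654 to 829 CPM in TLR7.1 RPM (median 696), against 278 to 655 CPM in WT RPM (median 477), with 0 of 4 tested passing. Each of these 4 marker lists had 2 genes at an unadjusted p under 0.05, and DESeq2's test called 1, a plasma cell gene that was higher. Of all 7945 genes tested 2.01% passed, and 1038 had an unadjusted p under 0.05. Of 15 neutrophil genes 5 had no count in any RPM library, as had 5 of 14 basophil, mast cell and eosinophil genes. The part of other cells in the results was not tested. These libraries do not tell which of the sorted cells carried the erythroid transcripts.

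Within collection dates the directions of the leading genes were the same. In the order 13, 21 and 26 December, the log2 fold changes of Rhag were 5.74, 8.97 and 5.46, and those of Mki67 were 2.36, 2.62 and 3.39. In the same order those of Rsad2 were 1.72, 0.73 and 1.98, those of Ccl24 -4.50, -6.57 and -3.27 and those of Cd163 -2.74, -1.95 and -1.14. The value of 21 December rests on the shallow library of WT mouse 24323 and 2 TLR7.1 libraries. These dates are subsets of the libraries on which the genes were called.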

How the data were processed

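The authors deposited raw counts, whole numbers for each Ensembl gene and library, with no normalisation. Tools listed in the submitters' processing notes, without their roles, are HTSeq 0.4.1, CASAVA 1.8.2, TopHat, Bowtie, SAMtools, FastQC and Picard, and the build is NCBIM37. The labels' protocols give 500 sorted cells a library, SMART-Seq v4 cDNA and Nextera XT libraries, a preparation that does not mark strand, so overlapping antisense reads cannot be told apart. No source used here gives the annotation or the counting settings. Symbols came from GENCODE M21 by identifier (32919 of 37991, with 99.08% of RPM counts), and no coordinates are taken from the files.

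Counts of the 12 RPM libraries were filtered with edgeR's filterByExpr (7945 genes kept of 17367 with a count), scaled by TMM and fitted with 1 mean per genotype (edgeR 4.0.16, glmQLFit robust and glmQLFTest, R 4.3.3). Two-sided p-values were adjusted (Benjamini-Hochberg) across every gene tested, with calls at an adjusted p under 0.05. SE is the log2 fold change over the root of F. The interaction set the effect of genotype in RPM against that in Mono over 24 libraries, as RPM minus Mono. The procedure was run on counts simulated from its own model, which cannot show how it behaves where the data depart from that model.

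The genotypes share no mouse and mice carry their own numbers, so the comparison is unpaired. No 2 replicates agreed within sampling noise (smallest chi-square per degree of freedom 3.71 in 30 pairs). Whether mice of a genotype are littermates is not given, so it is not known whether they are independent. The p-values set the genotype difference against the spread between these mice. Depth was 268275 to 1257240 counts in TLR7.1 RPM and 95002 to 1511480 in WT RPM. Collection dates held 2, 2 and 2 TLR7.1 libraries and 2, 1 and 3 WT libraries on 13, 21 and 26 December.

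Named genes were Tlr7 and the gate genes; the 10 largest rises and falls with at least 20 CPM in the higher genotype, no overlap and an assigned symbol that is no predicted gene, clone, pseudogene or receptor segment; up to 4 called members of each list; and 5 interaction genes a direction. Genes outside this rule are said to be so only in part. Also picked after values were seen were Slc4a1, Car2, Hemgn, Tspan33, Gata1, the globins, Top2a, Nusap1, Birc5, Ube2c and Prc1. So were Isg15, Mx1, Irf7, Cxcl10, Gstm1 and Serp1. The red pulp macrophage markers were set in the design, and Tlr8, Prps2 and Jchain were added as context. The lists, 46 in all, of 994 entries of which 13 matched no identifier, and the genes described were chosen with earlier results of these data known. Alternatives used DESeq2 1.42.0 and limma 3.58.1. Promoters came from RefSeq (GRCm38.p6), 1 a gene. Results for a few genes are not reported here.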

Additional observations from a re-analysis of the deposited data

Results flagged for a closer look

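Single libraries stood apart from the other 5 of their genotype in 13 of 168 groups examined (84 genes in 2 genotypes), measured as the gap to the nearest library over the whole range on a log2 scale. For normally distributed values chance alone gives about 1 such group in 20. That rate need not hold here, where some groups have libraries at 0 and the genes were mostly chosen as called. In TLR7.1 RPM, 2 of these fell to mouse 24068. Fech was lowest in TLR7.1 mouse 24068, at 187 CPM, with the other libraries of its genotype at 343 to 445. Ermap was lowest in TLR7.1 mouse 24068, at 32.0 CPM, with the other libraries of its genotype at 97.7 to 172. Mouse 24380, the shallowest TLR7.1 library, gave 3. Nfe2 was highest in TLR7.1 mouse 24380, at 372 CPM, with the other libraries of its genotype at 60.6 to 101. Pnp2 was highest in TLR7.1 mouse 24380, at 98.1 CPM, with the other libraries of its genotype at 21.0 to 37.0. Urod was lowest in TLR7.1 mouse 24380, at 135 CPM, with the other libraries of its genotype at 251 to 311. Other TLR7.1 libraries gave 3 more. Cenpf was lowest in TLR7.1 mouse 24308, at 19.98 CPM, with the other libraries of its genotype at 82.7 to 189. Adam23 was lowest in TLR7.1 mouse 24107, at 93.8 CPM, with the other libraries of its genotype at 214 to 296. Apol7c was highest in TLR7.1 mouse 24308, at 1.11 CPM, with the other libraries of its genotype at 0. In WT RPM, 3 fell to mouse 24416. Hemgn was lowest in WT mouse 24416, at 0 CPM, with the other libraries of its genotype at 23.6 to 49.7. Birc5 was lowest in WT mouse 24416, at 0 CPM, with the other libraries of its genotype at 42.8 to 165. Pycard was lowest in WT mouse 24416, at 172 CPM, with the other libraries of its genotype at 331 to 409. The other 2 were in genes of few counts. Ranbp10 was lowest in WT mouse 24323, at 0 CPM, with the other libraries of its genotype at 12.0 to 40.1. Ypel4 was highest in WT mouse 24117, at 1.34 CPM, with the other libraries of its genotype at 0.

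The genotype effect differed between RPM and Mono by edgeR's interaction test for 17 of the genes described. The effect in RPM minus that in Mono, on the log2 scale, was 4.23 for Ctse, 3.31 for Rgcc, 3.14 for Ccdc88c, 2.72 for Ranbp10, 2.71 for Nfe2, 2.58 for Isg20, 2.50 for E2f2, 2.43 for Cpox, 2.25 for Rsad2, 1.89 for Slc25a37 and 0.85 for Serp1. It was -9.83 for Apol7c, -2.45 for Mctp1, -2.01 for Gpr141, -1.96 for Galnt6, -1.75 for Tgfbi and -1.27 for Lpcat2. These genes were chosen by their change in RPM, so the direction of the difference is not independent of the choice.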

How the results depend on the processing

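The depth of 95002 counts in WT mouse 24323 leaves genes of low level without counts there, and the comparison within 21 December rests on it. Counts of called genes moved with the fit. Gstm1, a called gene, had the opposite sign within 21 December, at 0.31 on the log2 scale. Of 83 described called genes, 42 stayed called in each fit without 1 library. Over 25 alternatives 1521 of 2032 values stayed called, 510 lost the call and 1 reversed.

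Against 109 higher and 51 lower genes, DESeq2's test gave 239 and 130, limma voom with sample quality weights 227 and 171, and a fit on all 30 libraries 494 and 416. With a replicate block, the mouse as a random effect over all 30 libraries (consensus within-mouse correlation 0.0474), limma voom gave 393 and 482, and without the block 395 and 482; the genes called for RPM minus Mono, 58 as reported, were 162 and 126 in these fits. The cause of these differences was not tested. Thinning every library to 95002 counts left 2711 genes and gave 53 and 38. Within dates, fewer samples gave 0 and 0 on 13 December, 0 and 0 on 21 December and 41 and 5 on 26 December by edgeR (468, 660 and 782 genes at an unadjusted p under 0.05, no other tool run), with the lone WT library of 21 December assumed to vary like the rest. Tlr7 had log2 fold changes of 2.74 and 3.07 without passing on 13 and 21 December (adjusted p = 0.0939 and 0.365). Without 1 library, 53 to 187 genes were higher and 21 to 95 lower, and Tlr7 ran from 2.06 to 2.41. Without the 2 libraries under 300000 counts, chosen after seeing the data, 79 were higher and 34 lower.

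Members called higher, as reported, were 9 for mitosis, 2 for DNA replication, 9 for erythroid cells, 2 for type I interferon and 1 for red pulp macrophage identity. In that order they were 15, 8, 14, 3 and 2 by DESeq2's test, and 17, 11, 14, 7 and 0 with all 30 libraries. Voom with quality weights gave 14, 10 and 14 for the first 3 lists. Voom on 30 libraries gave 17, 11, 16 and 4 for the first 4 lists, with or without the block. No list had a called member within 13 or 21 December (0 each), and on 26 December there were 4 for mitosis, 0 for DNA replication, 1 for interferon and 0 for identity. Thinned counts gave 4 for mitosis, 5 for erythroid cells and 1 for interferon. Without a filter on low counts there was 1 for interferon and 2 for identity, with date as a covariate 2 for identity, and without the 2 shallow libraries 1 for interferon. Without 1 library the ranges were 6 to 17 for mitosis, 2 to 9 for DNA replication, 6 to 14 for erythroid cells, 1 to 2 for interferon and 0 to 2 for identity.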
